A study of Rattus norvegicus with 6 samples.

Results

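The miR-30 family is an abundant group of miRNAs in rat lung, and its members were taken here by name from the small RNA counts of lungs after ischemia reperfusion (IR) and of sham-operated lungs. All names of the table made of rno- plus miR-30a, miR-30b, miR-30c, miR-30d or miR-30e were used, with both arms of each hairpin. This gave 11 of the 693 listed miRNAs, namely 5 members of the 5p arm (rno-miR-30a-5p, rno-miR-30b-5p, rno-miR-30c-5p, rno-miR-30d-5p and rno-miR-30e-5p) and 6 of the 3p arm (miR-30a-3p, miR-30b-3p, miR-30c-1-3p, miR-30c-2-3p, miR-30d-3p and miR-30e-3p). The IR group held lungs of 3 male Sprague-Dawley rats, 7 to 8 weeks of age, in which the left hilum was clamped for 45 min and blood flow was then restored. The sham group held lungs of 3 rats of that strain, sex and age that had the thoracotomy without clamping, and the labels call them control. No source used here gives the length of reperfusion or the part of the lung sampled. Each sample gave 1 library, and in the study's text those of 1 group are biological replicates.

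A miRNA is cut from a hairpin, and either arm of the hairpin can be loaded into the silencing complex, where the bases near its 5′ end (the seed) pair with target mRNAs. The miR-30 5p arms share a single seed and therefore a large set of predicted targets. In cells of other species they are known for holding back epithelial-mesenchymal transition through SNAI1, for limiting autophagy through BECN1, and for tuning Notch signalling in endothelial cells through DLL4. None of these targets was measured here.

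The mature sequences are printed because the shared seed defines the family and because close sequences limit how well reads can be told apart. Of the 11 names, 6 have a mature sequence in RefSeq (rat assembly GRCr8). Each is given from 5′ to 3′ with bases 2 to 8, the seed, in capitals, and miR-384-5p, the other miRNA of that table with the same seed, is added.
miR-30a-5p: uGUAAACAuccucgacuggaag
miR-30c-5p: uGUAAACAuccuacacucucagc
miR-30e-5p: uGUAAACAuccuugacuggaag
miR-384-5p: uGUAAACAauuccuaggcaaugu
miR-30a-3p: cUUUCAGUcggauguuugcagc
miR-30c-1-3p: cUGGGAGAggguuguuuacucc
miR-30c-2-3p: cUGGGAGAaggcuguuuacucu
Counted from 1 at the 5′ end, miR-30a-5p and miR-30e-5p differed by 1 substitution over 22 bases, C13U. miR-30c-5p differed from each of them at 5 of 22 bases, all after the seed. The 3p arms fell into other seed groups, with miR-30c-1-3p and miR-30c-2-3p sharing one and differing by G9A, U12C and C22U. miR-30c-5p has 2 genes with the same mature sequence, so that its reads cannot be assigned to Mir30c1 or Mir30c2, whereas their 3p arms can. In RefSeq GRCr8, Mir30c1 and Mir30e lie within the protein-coding gene Nfyc on chromosome 5, Mir30a and Mir30c2 both lie on chromosome 9, and Mir30b and Mir30d both lie within the long noncoding RNA gene LOC102551574 on chromosome 7. No source used here says how the authors treated mismatches and reads with several matches, so reads of miR-30a-5p and miR-30e-5p may have been shared or split. Apart from miR-30b-3p, whose counts were too low for this check, no member had counts that matched another name within 5% or 2 reads in every library.

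The IR libraries held 3775663 to 11248166 listed miRNA reads and the sham libraries 7459979 to 10718899. IR replicate 2 was the shallowest. In sham replicate 3, miR-21-5p, a miRNA induced in inflammation, took 24.2% of the reads, against 9.66% to 13.5% in the other libraries. The endothelial miR-126a-3p (78148 to 98443 normalized CPM in IR and 83301 to 105437 in sham) and the epithelial miR-200a-3p (7770 to 8657 in IR and 6032 to 7219 in sham) were plentiful in every library. Of the neuronal miRNAs, miR-124-3p had at most 0.285 in IR and 0.672 in sham, but miR-9a-5p had 31.7 to 142.5 in IR and 26.6 to 50.1 in sham. Levels below are either TPM, which in this table are reads per 1000000 reads of all listed miRNAs, not divided by length, or normalized CPM, which are reads per 1000000 after edgeR's TMM scaling. In bulk lung, fewer cells of a type and less RNA per cell cannot be told apart. The reads carry no molecular identifiers, so counting floors cover counting error only.

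The 5p arms carried nearly all miR-30 reads and followed a steep order. miR-30a-5p had 89651, 105773 and 79722 TPM in the IR libraries, against 76123, 67215 and 71726 TPM in sham. By mean TPM it was number 3 of all listed miRNAs in IR and number 5 in sham. miR-30d-5p had 61341, 80825 and 52785 TPM in IR, against 46292, 39385 and 38819 TPM in sham, and was number 6 in both groups. The TPM ranges of miR-30a-5p and miR-30d-5p overlapped, but within each library miR-30a-5p was 1.31 to 1.85 times as high. miR-30c-5p followed with 18829, 21564 and 17291 TPM in IR, against 16372, 13903 and 15109 TPM in sham. miR-30e-5p had 9507, 11203 and 7482 TPM in IR, against 8312, 7880 and 8266 TPM in sham. miR-30b-5p was the least abundant of the 5p arms, with 2049, 2159 and 2661 TPM in IR, against 3428, 2384 and 1846 TPM in sham. From miR-30d-5p downwards, the ranges of neighbours in this order did not overlap at any step down to miR-30b-3p.

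**Figure D1:**
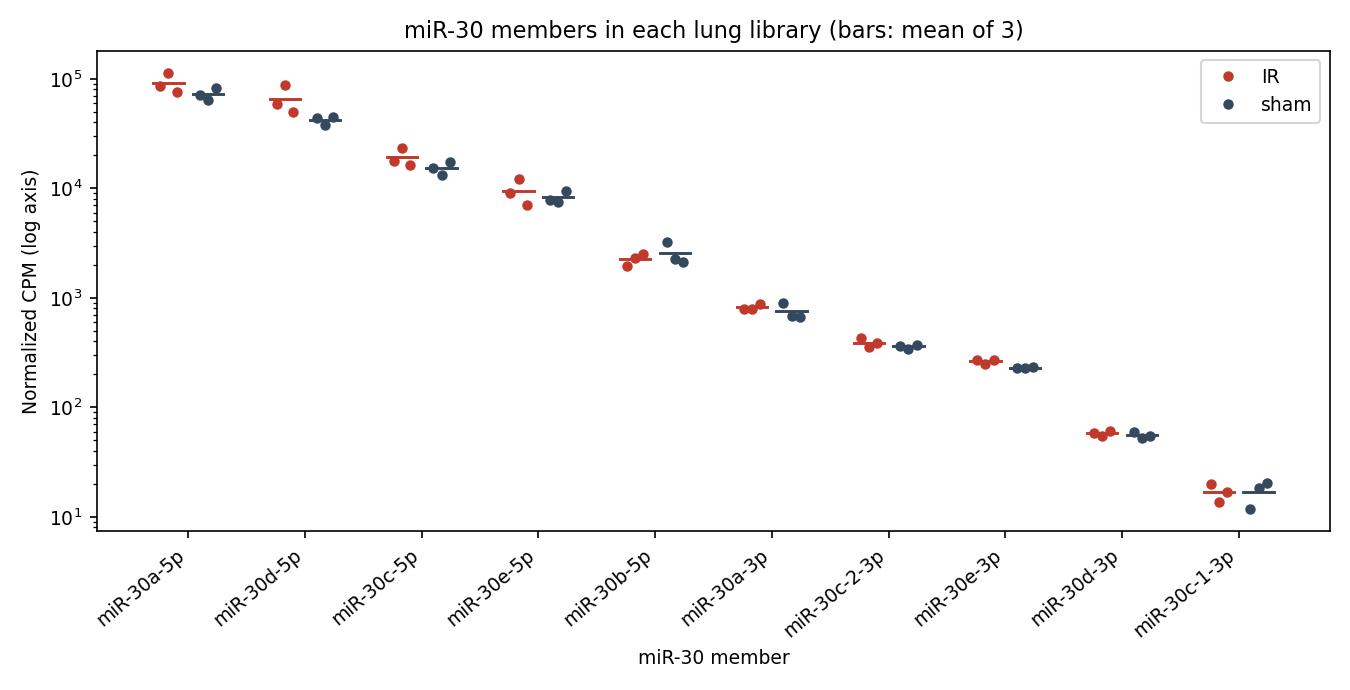
Normalized CPM (log axis) of the 10 miR-30 members kept by the low-count filter, 1 point per library and a bar at the mean of 3, with IR in red left of sham in dark blue. The 5p arms sit at the left from miR-30a-5p, with IR replicate 2 the highest point for miR-30a-5p, miR-30d-5p, miR-30c-5p and miR-30e-5p, and the 3p arms lie lower.

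Every 3p arm was rarer than the least abundant 5p arm in every library. miR-30a-3p led with 825, 736 and 931 TPM in IR, against 956, 718 and 579 TPM in sham. miR-30c-2-3p had 332 to 447 TPM in IR and 320 to 390 TPM in sham, and miR-30e-3p had 232 to 284 TPM in IR and 203 to 243 TPM in sham. miR-30d-3p had only 51.4 to 64.7 TPM in IR and 47.8 to 63.8 TPM in sham although its 5p arm was the next most abundant member after miR-30a-5p. miR-30c-1-3p had 12.7 to 21.1 TPM in IR and 12.5 to 19.3 TPM in sham. For miR-30b-3p 1, 0 and 4 reads were counted in the IR libraries, against 3, 4 and 3 in the sham libraries. A count of 0 in IR replicate 2 allows up to 0.795 TPM, and this miRNA stayed under the low-count filter.

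Together the 11 members took a larger share of the listed reads in all IR libraries than in any sham library. The share was 18.3%, 22.3% and 16.2% in IR, against 15.2%, 13.2% and 13.7% in sham, or 18.9% ± 3.11 and 14.04% ± 1.05 (SD, n = 3 each). The difference of the means was 4.88 percentage points, and 3.19 without IR replicate 2, whose share was the highest. The groups no longer separated once miR-21-5p was taken out of the totals, with 20.3%, 25.6% and 17.9% in IR, against 17.6%, 15.1% and 18.1% in sham. The summed normalized CPM also overlapped, at 174048, 239890 and 153202 in IR, against 143049, 125607 and 158022 in sham. A sum over members chosen by name was given no test. With miR-30d-5p left out, the share was 12.2%, 14.2% and 10.9% in IR, against 10.6%, 9.28% and 9.81% in sham. The 3p arms made up only 0.136% to 0.170% of the reads in IR and 0.117% to 0.166% in sham.

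**Figure D2:**
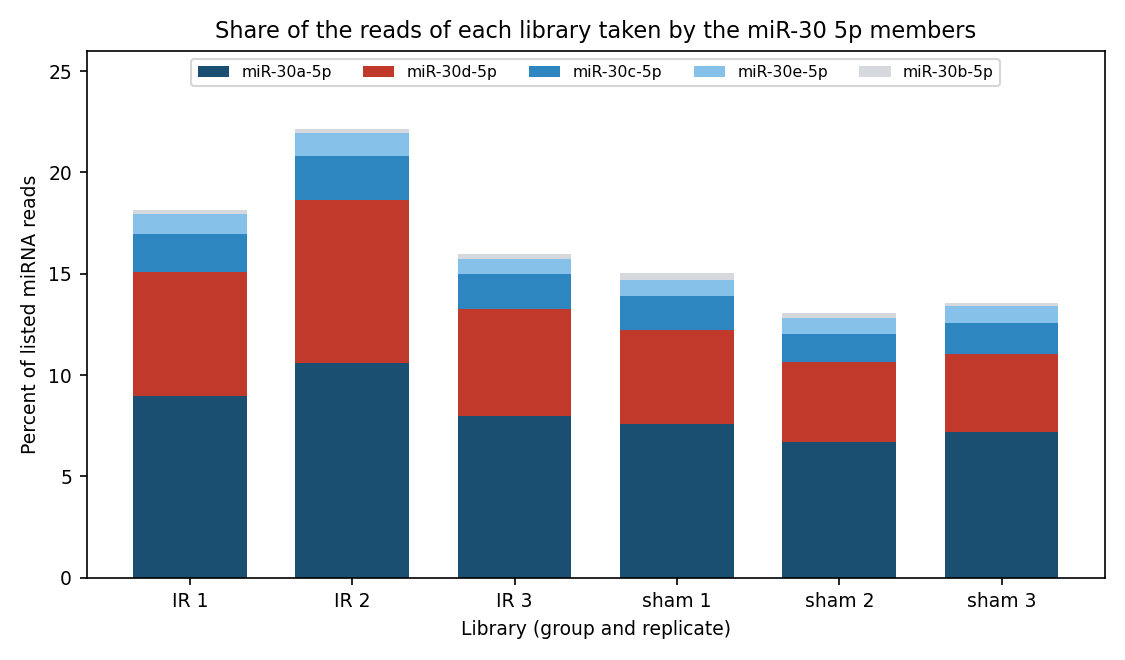
Percent of the listed miRNA reads of each library (vertical axis, from 0) taken by the 5 miR-30 5p members, stacked by member, with the 3 IR libraries left of the 3 sham libraries. The stacks reach 16.0% to 22.2% in IR and 13.1% to 15.1% in sham, and IR replicate 2 has the tallest stack.

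The question put to each member was whether its level differed between IR and sham lungs. None of the 10 members tested passed an adjusted p of 0.05 in edgeR's quasi-likelihood test, and 1 (miR-30d-5p) had an unadjusted p under 0.05. DESeq2's Wald test also called 0 of 10, beside 15.3% of all miRNAs it tested (13.7% with its default filter). Over all 418 tested miRNAs edgeR called 44 (10.5%), with 33 higher (7.89%) and 11 lower (2.63%). An unadjusted p under 0.05 was found for 26.3%, and for 14.1% with a higher level in IR. The log2 fold change was above 0 for 9 of the 10 members, with a median of 0.16, beside 48.8% and a median of -0.01 over all tested miRNAs. In normalized CPM, 2 members, miR-30d-5p and miR-30e-3p, did not overlap between the groups, both with IR above sham, as had 17.2% of all tested miRNAs.

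miR-30d-5p had the largest difference of the family. It had 58336, 86990 and 50028 normalized CPM in the IR libraries, against 43511, 37431 and 44798 in the sham libraries, and every IR library was above every sham library. The mean was 65118 ± 19392 in IR and 41913 ± 3935 in sham (SD, n = 3 each). The log2 fold change was 0.64 with a standard error of 0.22, or 1.55-fold, and missed the threshold at an adjusted p = 0.102 (edgeR, over 418 miRNAs). The 95% interval of this miRNA alone ran from 0.14 to 1.14 on the log2 scale. Across 20 other fits the log2 fold change stayed between 0.36 and 0.83, and the adjusted p was 0.0395 to 0.264. Of these fits, 5 put it past the threshold: library totals without TMM (adjusted p = 0.0478, edgeR), no low-count filter (0.0395, edgeR), the likelihood ratio test (0.0428, edgeR), and limma-trend on log2(TPM + 1) (0.0465) and log2(TPM + 0.1) (0.0490). Those fits called 11.5%, 7.79%, 15.8%, 12.0% and 11.2% of the miRNAs they tested. The lowest value, 0.36, was that without IR replicate 2.

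**Figure D3:**
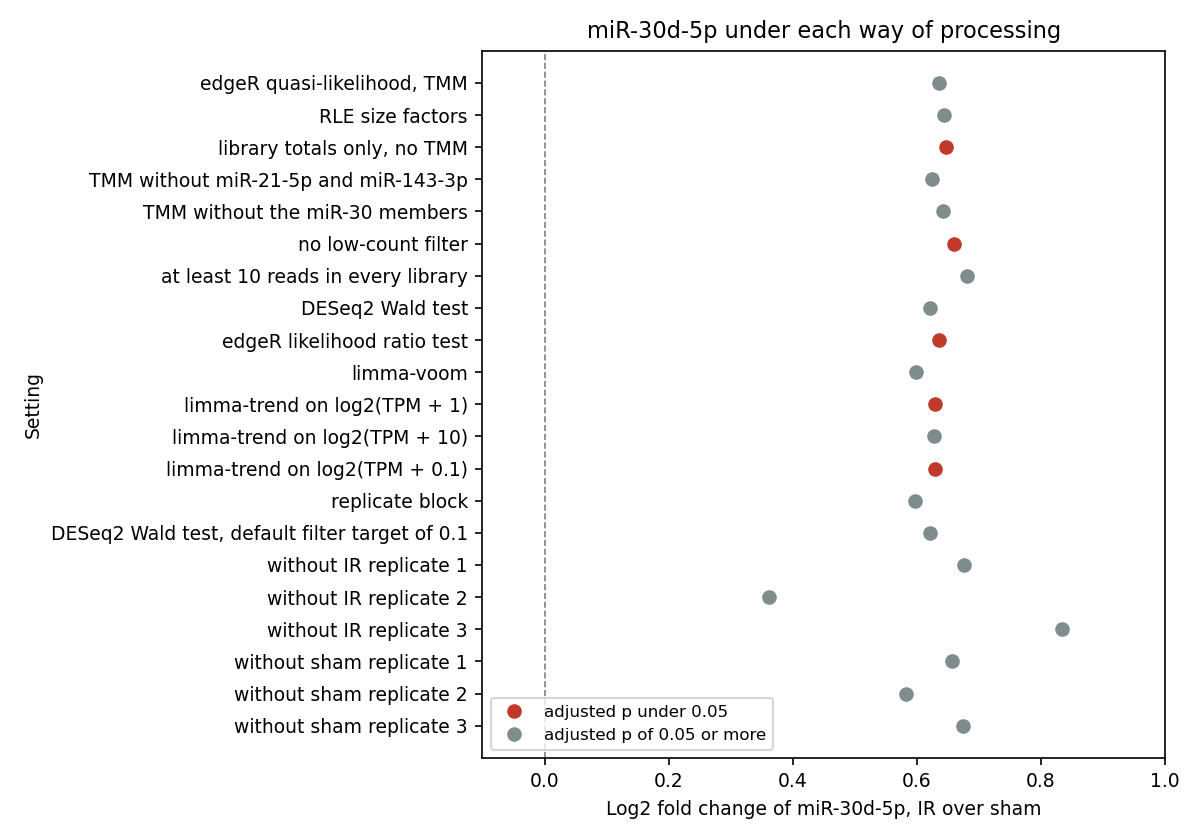
Log2 fold change of miR-30d-5p, IR over sham (horizontal axis), under the main fit and each of 20 other settings (vertical axis). Red points have an adjusted p under 0.05 and grey points do not, and all lie above 0, from 0.36 without IR replicate 2 to 0.83 without IR replicate 3.

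miR-30a-5p, the most abundant member, had 85258, 113841 and 75557 normalized CPM in IR, against 71550, 63880 and 82772 in sham. IR replicate 3 lay below sham replicate 3, so the groups overlapped on this scale, although they did not on the TPM scale. Its log2 fold change was 0.33 (standard error 0.19, adjusted p = 0.306 from edgeR) and 0.14 without IR replicate 2. miR-30c-5p, the product of 2 genes, showed nearly the same pattern, with 17906, 23209 and 16388 normalized CPM in IR, against 15388, 13213 and 17436 in sham. Its log2 fold change was 0.32 (standard error 0.18, adjusted p = 0.283 from edgeR) and 0.15 without IR replicate 2. It too overlapped between the groups in normalized CPM and not in TPM, where IR lay above sham in 3 members and in 17.2% of all tested miRNAs.

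miR-30e-5p, which differs from miR-30a-5p by 1 base, had 9042, 12057 and 7091 normalized CPM in IR, against 7813, 7489 and 9539 in sham. The highest and the lowest value were both IR libraries. Its log2 fold change was 0.18 (standard error 0.21, adjusted p = 0.593 from edgeR), and it was -0.05 without IR replicate 2. miR-30b-5p, whose gene neighbours that of miR-30d-5p, was the only tested member with a value below 0. It had 1948, 2323 and 2522 normalized CPM in IR, against 3222, 2266 and 2130 in sham, and its log2 fold change was -0.17 (standard error 0.19, adjusted p = 0.596 from edgeR). The value was 0.02 without sham replicate 1, which held the highest level.

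**Figure D4:**
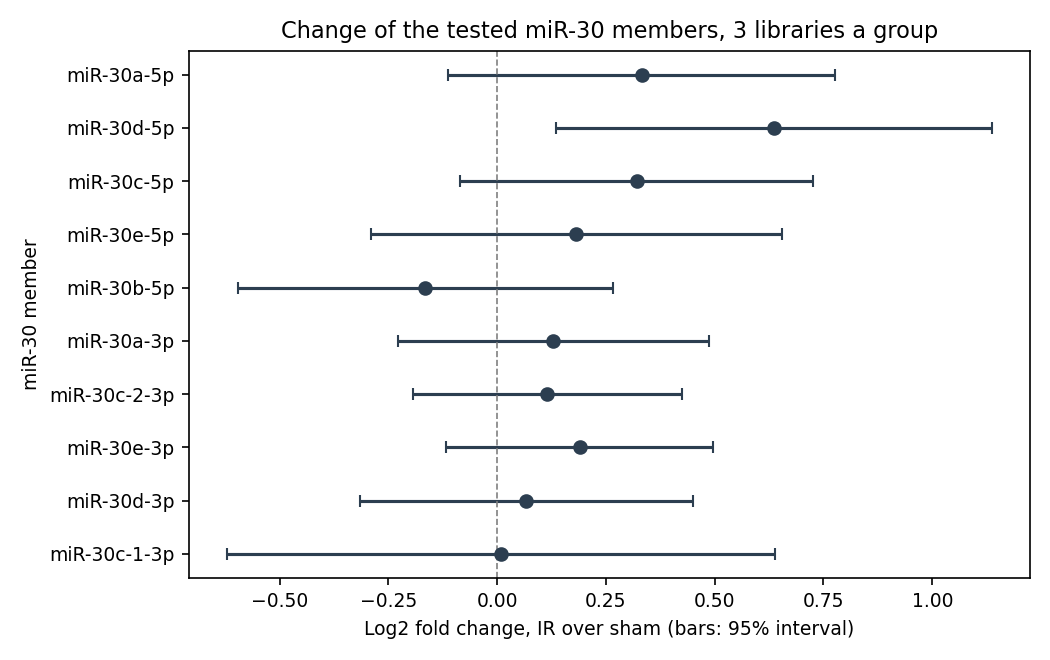
Log2 fold change of IR over sham (horizontal axis) of the 10 tested miR-30 members, with bars for the 95% interval of each, from 3 libraries per group. The interval of miR-30d-5p runs from 0.14 to 1.14 and those of the other 9 members include 0.

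None of the tested 3p arms passed the threshold. miR-30e-3p had the narrowest spread, with 270, 250 and 269 normalized CPM in IR, against 226, 231 and 235 in sham, and did not overlap. The log2 fold change was 0.19 (standard error 0.13, adjusted p = 0.388 from edgeR). In TPM the groups of miR-30e-3p overlapped. The other tested 3p arms, miR-30a-3p, miR-30c-2-3p, miR-30d-3p and miR-30c-1-3p, had log2 fold changes of 0.13, 0.11, 0.07 and 0.01, with adjusted p-values from edgeR of 0.615, 0.600, 0.822 and 0.993. Each of these small values depended on single libraries. For miR-30a-3p the value was 0.041 without sham replicate 3 and 0.26 without sham replicate 1. miR-30c-2-3p ranged between 0.0043, with IR replicate 1 left out, and 0.17, with IR replicate 3 left out. For miR-30d-3p the value was 0.019 without IR replicate 1 and 0.11 without sham replicate 1. miR-30c-1-3p ranged from -0.20 without sham replicate 1 to 0.16 without sham replicate 3. With all libraries, the 95% intervals of these 4 lay within -0.62 and 0.64, the bounds of miR-30c-1-3p, which had the fewest reads of the tested members (48 in IR replicate 2).

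Because the 5p arms of a library share its depth and scaling, their ratios do not depend on either. The ratio of miR-30a-5p to miR-30c-5p was nearly constant, at 4.76, 4.91 and 4.61 in IR, against 4.65, 4.83 and 4.75 in sham (SD of the log2 ratio over the 6 libraries 0.033). miR-30d-5p took a larger part of the family in IR. Its share was 33.5%, 36.3% and 32.7% of the miR-30 reads in IR, against 30.4%, 29.8% and 28.3% in sham. miR-30a-5p took 49.0%, 47.5% and 49.3% in IR, against 50.02%, 50.9% and 52.4% in sham, and miR-30e-5p 5.19%, 5.03% and 4.63% in IR, against 5.46%, 5.96% and 6.04% in sham. In these 3 members all IR libraries lay on one side of all sham libraries. The shares add up to the whole family, so that a higher share of one member lowers those of the rest.

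The same held for ratios between single members. miR-30a-5p over miR-30d-5p was 1.46, 1.31 and 1.51 in IR, against 1.64, 1.71 and 1.85 in sham, a log2 difference of -0.28 (standard error 0.08). miR-30d-5p over miR-30e-5p was 6.45, 7.21 and 7.05 in IR, against 5.57, 4.998 and 4.70 in sham, a log2 difference of 0.44 (standard error 0.09). miR-30d-5p over miR-30c-5p was 3.26, 3.75 and 3.05 in IR, against 2.83, 2.83 and 2.57 in sham. miR-30a-5p over miR-30e-5p was 9.43, 9.44 and 10.7 in IR, against 9.16, 8.53 and 8.68 in sham. Of the 10 ratios among the 5p arms, these 4 did not overlap between the groups, and 3 of the 4 involved miR-30d-5p. Of all 10, 4 involved miR-30d-5p, and ratios with a member in common are not independent of each other. Each of the 4 had a two-sided exact permutation p = 0.1 (adjusted over the 10 ratios 0.25), which is the smallest that 3 against 3 libraries allow. The comparison of all 10 ratios between the groups was added after their values were seen.

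**Figure D5:**
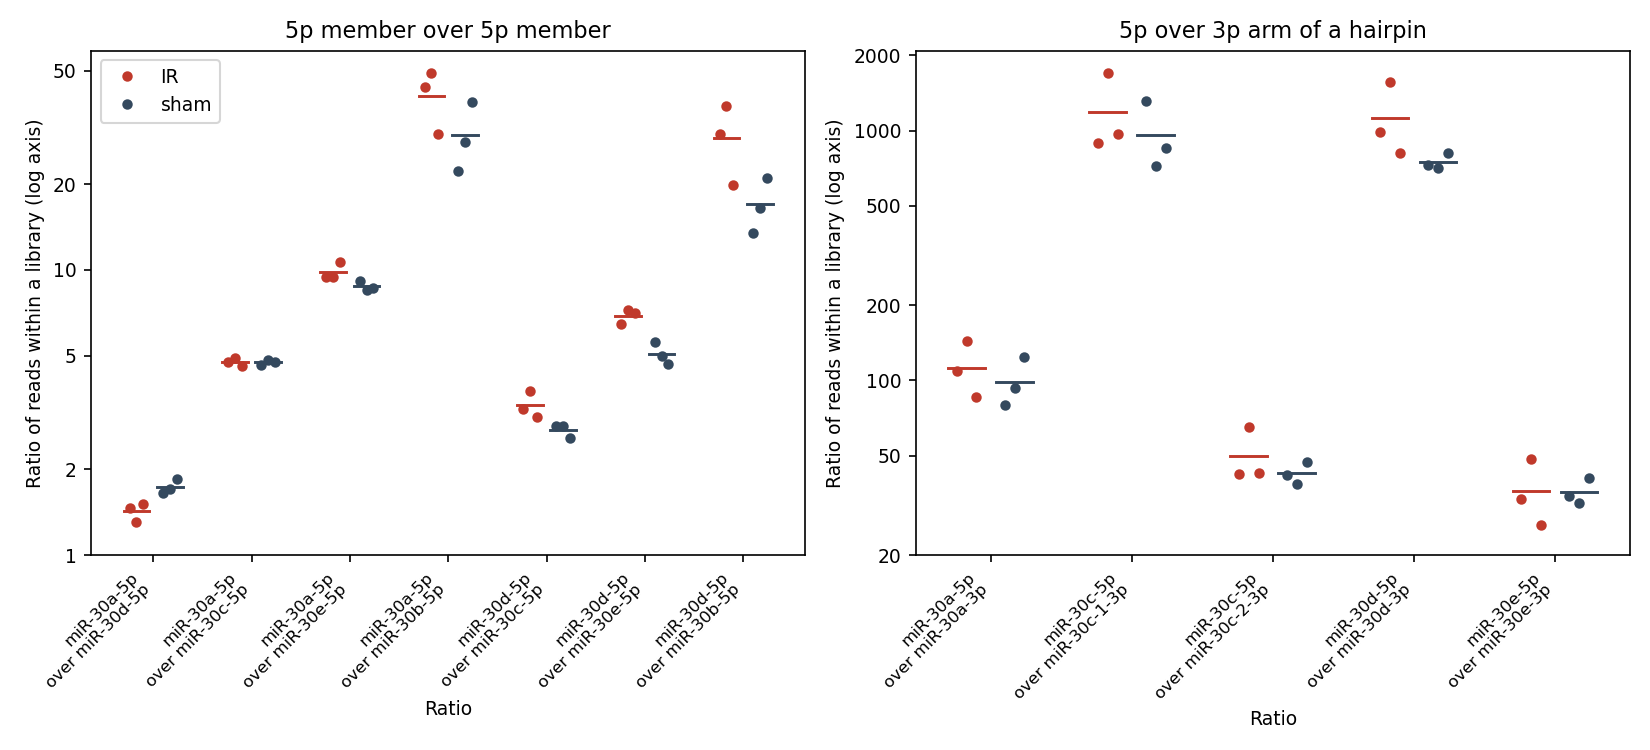
Ratio of reads within a library (log axes), 1 point per library and a bar at the mean of 3, with IR in red left of sham in dark blue. The left panel shows ratios among 5p members, where miR-30a-5p over miR-30c-5p stays at 4.61 to 4.91, and the right panel shows 5p over 3p reads of a hairpin, where only miR-30d-5p over miR-30d-3p does not overlap.

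The arms of a hairpin were set against each other in the same way. miR-30d-5p exceeded miR-30d-3p by 991, 1573 and 816 times in IR, against 726, 712 and 813 times in sham. All IR libraries lay above all sham libraries, but IR replicate 3 and sham replicate 3 differed by little. The log2 difference was 0.53 (standard error 0.29, two-sided exact permutation p = 0.1, adjusted over 5 ratios 0.5) and 0.26 without IR replicate 2. The other ratios overlapped between the groups. miR-30a-5p over miR-30a-3p was 85.6 to 143.7 in IR and 79.6 to 124 in sham, miR-30e-5p over miR-30e-3p 26.3 to 48.3 in IR and 32.5 to 40.6 in sham, and miR-30c-5p over miR-30c-2-3p 42.1 to 64.9 in IR and 38.5 to 47.3 in sham. miR-30c-5p over miR-30c-1-3p was 892 to 1696 in IR and 720 to 1313 in sham. Their two-sided exact permutation p-values were 0.5 to 0.9. In IR replicate 2 every one of these 5 ratios had its highest value, so the high 5p levels of that library were not matched by its 3p arms. For miR-30b, whose 3p arm had 0 reads in 1 library, the summed reads gave a ratio of 10199 in IR and 7014 in sham, with no test.

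Members whose genes lie together were also set against each other. miR-30d-5p over miR-30b-5p, from the gene pair within the same noncoding RNA gene, was 29.9, 37.4 and 19.8 in IR, against 13.5, 16.5 and 21.03 in sham. IR replicate 3 lay below sham replicate 3. The log2 difference was 0.75 (standard error 0.33, two-sided exact permutation p = 0.2, adjusted over 3 gene pairs 0.6). miR-30a-5p over miR-30c-2-3p was 196 to 318 in IR and 186 to 224 in sham, and miR-30e-5p over miR-30c-1-3p, both from within Nfyc, 419 to 881 in IR and 408 to 667 in sham. Their two-sided exact permutation p-values were 0.5 and 0.8. Among the 10 ratios of the 5 tested 3p arms, only miR-30e-3p over miR-30d-3p did not overlap. It was 4.58, 4.52 and 4.393 in IR, against 3.77, 4.390 and 4.26 in sham (exact permutation p = 0.1, adjusted over the 10 ratios 0.9). IR replicate 3 and sham replicate 2 were almost equal.

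Across the 6 libraries the 5p arms other than miR-30b-5p varied together. On log2(normalized CPM + 1), Pearson's r was 0.81 to 0.99 over their 6 pairs and -0.37 to -0.23 between miR-30b-5p and the other 4. Between the 5p and 3p arms of a hairpin it was -0.17 to 0.22 over 5 pairs. These values rest on 6 libraries that share 2 groups and a scaling, with IR replicate 2 the highest for 4 of the 5p arms, and are a description without a test. Of 408 other tested miRNAs, those most like the summed 5p arms were miR-494-3p (r = 0.97), miR-3068-5p (0.94), miR-221-5p (0.92), miR-182 (0.92) and miR-146b-5p (0.92). Each of these 5 was highest in IR replicate 2, for example miR-146b-5p with 9462, 15001 and 8579 normalized CPM in IR, against 8029, 7914 and 11114 in sham. None of the 5 passed the test of IR against sham (adjusted p = 0.163 to 0.474 from edgeR). The least alike were miR-324-3p and miR-26b-3p, both with r = -0.95. Their levels were low, at 0.570 to 3.40 and 1.14 to 4.61 normalized CPM over the libraries. The same held for miR-494-3p, at 0.798 to 10.3, so these coefficients rest on few reads.

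miR-384-5p, which has the miR-30 seed but otherwise a different sequence, had 17, 8 and 25 reads in IR, against 13, 12 and 11 in sham. In normalized CPM this was 2.57, 2.28 and 2.11 in IR, against 1.64, 1.06 and 1.23 in sham, and the groups did not overlap. The log2 fold change was 0.82 (standard error 0.35, adjusted p = 0.174 from edgeR). Its level was so low that it added almost nothing to the reads with this seed.

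Other miRNAs known to restrain epithelial-mesenchymal transition or collagen synthesis lay on both sides of 0. Of 18 such miRNAs of the miR-200, miR-29, miR-26 and let-7 families, 0 were higher and 0 were lower in edgeR's quasi-likelihood test. That test called 7.89% of all tested miRNAs higher and 2.63% lower. The adjusted p-values of the 18 were 0.0647 to 0.997. In 9 of the 18 the log2 fold change was above 0, with a range of -0.30 to 0.55 and a median of -0.02, beside 48.8% above 0 and a median of -0.01 over all tested miRNAs. Those described next were chosen after their values were seen. The miR-29 3p arms, which target collagen mRNAs, had log2 fold changes of 0.52 (miR-29a-3p), 0.53 (miR-29b-3p) and 0.55 (miR-29c-3p). For miR-200b-3p and miR-200a-3p, which target the ZEB repressors, the values were 0.55 and 0.34. In normalized CPM the IR libraries lay above the sham libraries in each of these, as in 17.2% of all tested miRNAs. miR-26b-5p, let-7d-5p and let-7a-5p had log2 fold changes of -0.30, -0.28 and -0.24, with the IR libraries below the sham libraries in each on that scale. The share of all tested miRNAs that lay below sham in this way was not counted. In TPM the groups of miR-200a-3p, miR-26b-5p and let-7d-5p overlapped. The most abundant of the list, miR-26a-5p, had 69737 to 82014 normalized CPM in IR and 68435 to 83228 in sham. Of 3 miRNAs known to favour fibrosis, 0 were called, and they too lay on both sides of 0. Their log2 fold changes were -0.69 (miR-21-5p), -0.42 (miR-199a-5p, the median) and 0.24 (miR-155-5p). miR-199a-5p is also in the fibroblast list below. miR-21-5p had 93145, 139652 and 91566 normalized CPM in IR, against 126455, 116753 and 279439 in sham.

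Some cell type markers separated the same IR and sham libraries. The 5 epithelial miR-200 miRNAs summed to 18672 to 19222 normalized CPM in IR and 12889 to 15882 in sham, without overlap and with 0 of 5 called. Singly, miR-200a-3p and miR-200b-3p did not overlap between the groups, whereas miR-200c-3p, miR-141-3p and miR-429 did. The 3 fibroblast miRNAs summed to 2332 to 2485 in IR and 3224 to 3686 in sham, with 1 of 3 lower. Each of these 3 was also lower in all IR libraries than in any sham library. The 3 leukocyte miRNAs summed to 1267 to 1543 in IR and 1678 to 2763 in sham, with 0 of 3 called. Only miR-142-3p of the leukocyte list did not overlap singly, while miR-142-5p and miR-223-3p did. Among all tested miRNAs, edgeR called 7.89% higher and 2.63% lower, and the sums were given no test. The lymphocyte miR-150-5p was lower in IR (694 to 935) than in sham (1378 to 1502), with an adjusted p = 0.0229 from edgeR. Endothelial, smooth muscle, ciliated cell, erythroid, striated muscle and liver sums overlapped between the groups, as did the neuronal sum. Of their members only miR-1-3p of striated muscle was called (log2 fold change 1.31, adjusted p = 0.0138 from edgeR). The rest of the striated muscle list did not follow it, with log2 fold changes of -0.47 (miR-206-3p), -0.0081 (miR-133a-3p) and 0.046 (miR-133b-3p). IR replicate 2, with the highest miR-30 5p levels, had an epithelial sum of 18983, between those of the other IR libraries, and a neuronal sum of 143, set by miR-9a-5p, against 31.8 and 37.6 in the other IR libraries. The part of cell type make-up in the miR-30 values was not tested.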

How the data were processed

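Small RNA was sequenced from 3 IR and 3 sham rat lungs. In 1 table the authors deposited read counts, as whole numbers, for 693 miRNAs of each library. The TPM deposited beside each count is that count per 1000000 reads of all listed miRNAs. The submitters' processing notes name Bowtie, and no source used here names the genome build, annotation or counting tool. Groups were taken from the sample titles and their identity as sham from the study's methods.

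The tests were run on the counts with edgeR 4.0.16 in R 4.3.3 (filterByExpr, minimum count 10 and minimum total count 15, TMM, quasi-likelihood test of IR against sham, Benjamini-Hochberg over 418 miRNAs, threshold 0.05), limma 3.58.1 and DESeq2 1.42.0, checked on simulated counts. Standard errors of edgeR's quasi-likelihood fits are the size of the log2 fold change divided by the square root of F. Those of ratio differences come from the variances of the log2 ratios in each group, divided by its number of libraries. DESeq2's independent filtering was run with the threshold of 0.05 and, added after both numbers of calls had been seen, with its default of 0.1. Ratios used scipy 1.17.1, with a two-sided exact permutation test over all 20 divisions. Named are all miR-30 members, miRNAs with their seed, the 5 most and 2 least alike, and miRNAs of fixed lists. Some of the list miRNAs were named after their values were seen, in place of the most abundant ones. Members, lists and tests were chosen with earlier results of these data known. Sequences came from RefSeq GRCr8. The study's qPCR and its cultured cells are not analysed here.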

Additional observations from a re-analysis of the deposited data

How the results depend on the processing

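With 3 libraries per group, differences below about the 95% intervals given could not be resolved, and IR replicate 2, the shallowest library, set much of the spread. Of 200 other fits of single members, 189 kept the direction and the side of the threshold. miR-30d-5p passed the threshold in 5, with log2 fold changes of 0.65 for library totals, 0.66 without a filter, 0.64 in the likelihood ratio test, and 0.63 in limma-trend with pseudocounts of 1 and 0.1. In those 5, and at an unadjusted p, 1 member was called. The 44 miRNAs called in all were 26 with 10 reads in every library, 75 with DESeq2 and 110 at an unadjusted p. DESeq2 with its default filter, a setting added after seeing the data, called 69, and neither version called a member.

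Libraries with the same replicate number showed no positive correlation of their deviations from the group mean (-0.23, -0.39 and -0.18). Deviations from a mean of 3 libraries depend on each other, so this check cannot exclude a pairing. With the number as a replicate block, 0 of 418 were called, and miR-30d-5p had a log2 fold change of 0.60 (adjusted p = 0.264, edgeR). Without 1 library the number called ranged from 2 without IR replicate 3 to 57 without sham replicate 2, and was 24, 17 and 21 without IR replicate 1, IR replicate 2 and sham replicate 3.

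Signs turned for small values. The log2 fold change of miR-30c-1-3p was -0.00149 with both DESeq2 settings and ranged from -0.20 to 0.16 without 1 library. The ranges were -0.046 to 0.39 for miR-30e-5p and -0.29 to 0.023 for miR-30b-5p. The log2 differences of 5p over 3p ranged from -0.0136 to 0.36 for miR-30a, -0.00137 to 0.54 for miR-30c-1, -0.00299 to 0.31 for miR-30c-2 and -0.27 to 0.17 for miR-30e. They ranged from -0.0207 to 0.33 for miR-30a-5p over miR-30c-2-3p and from -0.21 to 0.34 for miR-30e-5p over miR-30c-1-3p. Of the 5 miRNAs most like the family, 1 was among the first 5 with Spearman's coefficient and 2 with shares of listed reads. The cause of these changes was not tested.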
